A study of Mus musculus with 6 samples.

Results

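The p53 target genes described here are 10 genes, Mdm2, Ccng1, Trp53inp1, Sesn1, Sesn2, Zmat3, Phlda3, Gadd45a, Plk2 and Btg2, taken by name as known targets of the transcription factor p53. Every probe set annotated to 1 of these genes alone was used, which gave 21 of the 45101 probe sets on the array, for 10 of the 18193 genes that at least 1 probe set measures alone. The study compared early erythroid progenitors, red cell precursors sorted by flow cytometry on CD71 and Ter119 with the dead-cell dye 7AAD, from fetal liver at embryonic day 13.5. There were 3 RNA samples from wild-type fetal livers and 3 from livers of Eklf -/- embryos, homozygous for a knockout of Eklf, each on 1 array, and all 6 carry the strain label C57BL/6. The labels trace the knockout to targeting clones from a strain 129 library, put into C57BL/6 blastocysts, and the loss is constitutive, so every cell of the embryo carries it. Whether a sample came from 1 liver or from several, and which embryos were littermates, is not given in the sources used here, so the p-values measure the spread between these samples. Eklf, with the gene symbol Klf1, is a zinc finger activator of red cell genes.

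p53 is a transcription factor that is stabilised by DNA damage, nucleotide shortage, faulty ribosome assembly and other stress, and its targets halt the cell cycle, adjust metabolism, aid repair or start cell death. Mdm2 closes a feedback loop, because p53 induces the ligase that destroys it. Several of these targets also answer to other factors, among them FoxO, Atf4 and Stat proteins, so that their RNA level alone is no measure of p53 activity. In red cell precursors p53 is best known from anaemias with impaired ribosome assembly.

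p53 binds pairs of a short element, the half-site, and RefSeq promoter windows (build GRCm38.p6) were searched for that element in the 250 bases before each annotated start of transcription. The consensus half-site reads the same on both strands, so 1 match covers both. Windows were found for 8 of the 10 genes, 9 windows in all, because Sesn1 has 2 annotated starts. A half-site was present in 4 of these 9 windows, those of Gadd45a, Mdm2, Ccng1 and the second start of Sesn1, and in 7.13% of all 32851 windows. The 4 windows are printed here because each holds 1 match to the half-site, not a pair, with the half-site in capitals and the rest in lower case.
Gadd45a (chr6:67037408-67037657, minus strand): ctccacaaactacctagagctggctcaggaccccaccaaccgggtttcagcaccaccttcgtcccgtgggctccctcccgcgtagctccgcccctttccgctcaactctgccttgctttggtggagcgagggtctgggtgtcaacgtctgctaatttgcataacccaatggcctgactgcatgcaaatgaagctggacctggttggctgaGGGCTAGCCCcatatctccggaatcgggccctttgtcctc
Mdm2 (chr10:117710759-117711008, minus strand): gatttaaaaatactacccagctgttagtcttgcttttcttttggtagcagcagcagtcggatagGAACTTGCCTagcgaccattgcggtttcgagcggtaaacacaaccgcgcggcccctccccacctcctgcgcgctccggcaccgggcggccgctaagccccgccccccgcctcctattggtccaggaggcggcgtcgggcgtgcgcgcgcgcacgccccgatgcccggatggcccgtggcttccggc
Ccng1 (chr11:40755287-40755536, minus strand): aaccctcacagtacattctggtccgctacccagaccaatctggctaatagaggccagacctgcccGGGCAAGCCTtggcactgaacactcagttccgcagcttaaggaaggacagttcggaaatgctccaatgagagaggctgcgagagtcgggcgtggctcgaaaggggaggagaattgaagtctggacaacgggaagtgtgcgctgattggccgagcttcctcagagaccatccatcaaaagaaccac
Sesn1 (chr10:41887189-41887438, plus strand): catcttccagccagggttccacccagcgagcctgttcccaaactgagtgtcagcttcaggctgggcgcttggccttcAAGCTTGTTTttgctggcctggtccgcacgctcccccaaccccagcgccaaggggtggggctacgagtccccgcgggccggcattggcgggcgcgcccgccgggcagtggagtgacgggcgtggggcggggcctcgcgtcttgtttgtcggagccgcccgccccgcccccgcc
The half-site GGGCTAGCCC of Gadd45a lies 40 to 31 bases before the start, GAACTTGCCT of Mdm2 lies 186 to 177 bases before it, GGGCAAGCCT of Ccng1 185 to 176 and AAGCTTGTTT of Sesn1 173 to 164. The letters CCNCNCCC, a core of the box that Eklf binds, were found on either strand in 8 of the 9 windows and in 45.9% of all windows. Among the 8 genes 7 had a match, all but Gadd45a, with 0 overlaps with a half-site. The stricter CCACACCC was in 0 of the 9 windows and in 3.2% of all windows. A match is a stretch of letters, not a measured binding site. The 4 genes with a half-site did not move one way, as the values below show.

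Gadd45a, Plk2, Phlda3 and Sesn2 rose in the knockout arrays, by 4.88-, 4.81-, 2.88- and 2.61-fold, and Sesn1 and Trp53inp1 fell, by 2.06- and 1.85-fold, each taken at its brightest probe set. Mdm2, Ccng1, Zmat3 and Btg2 did not pass the test at that probe set, although other probe sets of Mdm2 and Ccng1 rose. The set thus split by gene: 4 of 10 genes higher, 2 lower and 4 not called (limma, Benjamini-Hochberg adjusted p under 0.05 over 12799 genes). Of all genes tested, 48.7% were called, 27.9% higher and 20.8% lower, so the lower count is close to the background and the higher count somewhat above it. The median log2 difference, knockout minus wild type, was 0.43 over the 10 genes and 0.14 over all genes tested. Wild-type and knockout values were fully separate for 8 of the 10 genes, with the knockout above for 6 and below for 2. Over all genes tested the groups were separate for 59.3%, with the knockout above for 34.1% and below for 25.2%.

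Every gene tested had a mean log2 signal of at least 6.62, a signal of 98.6, and all 10 members passed this filter. Among the 21 probe sets, 20 passed it, and with all probe sets tested together 9 of the 20 were higher and 4 lower. Among all 27023 probe sets tested 43.8% were called, 28.1% higher and 15.7% lower. The groups were separate for 16 of the 20, 12 above and 4 below, against 57.6%, 37.5% and 20.1% of all probe sets tested. For 2 of the 9, 1 dim probe set each of Mdm2 and Sesn1, 0 of 3 wild-type arrays reached 98.6, so they passed the filter through the knockout arrays and had to differ. Probe sets of 1 gene disagreed in sign for 3 of the 7 genes with more than 1 probe set, Trp53inp1, Sesn1 and Btg2. With the mean of all probe sets of a gene, 6 genes were higher, now with Mdm2 and Ccng1, and 1 was lower, Sesn1. In that setting 3109 of all 11355 genes tested were higher and 1923 lower. The mean of Mdm2 includes its dim probe set, which had to differ. P-values below are limma's, adjusted over all genes for the brightest probe set of a gene and over all probe sets for the others.

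**Figure D1:**
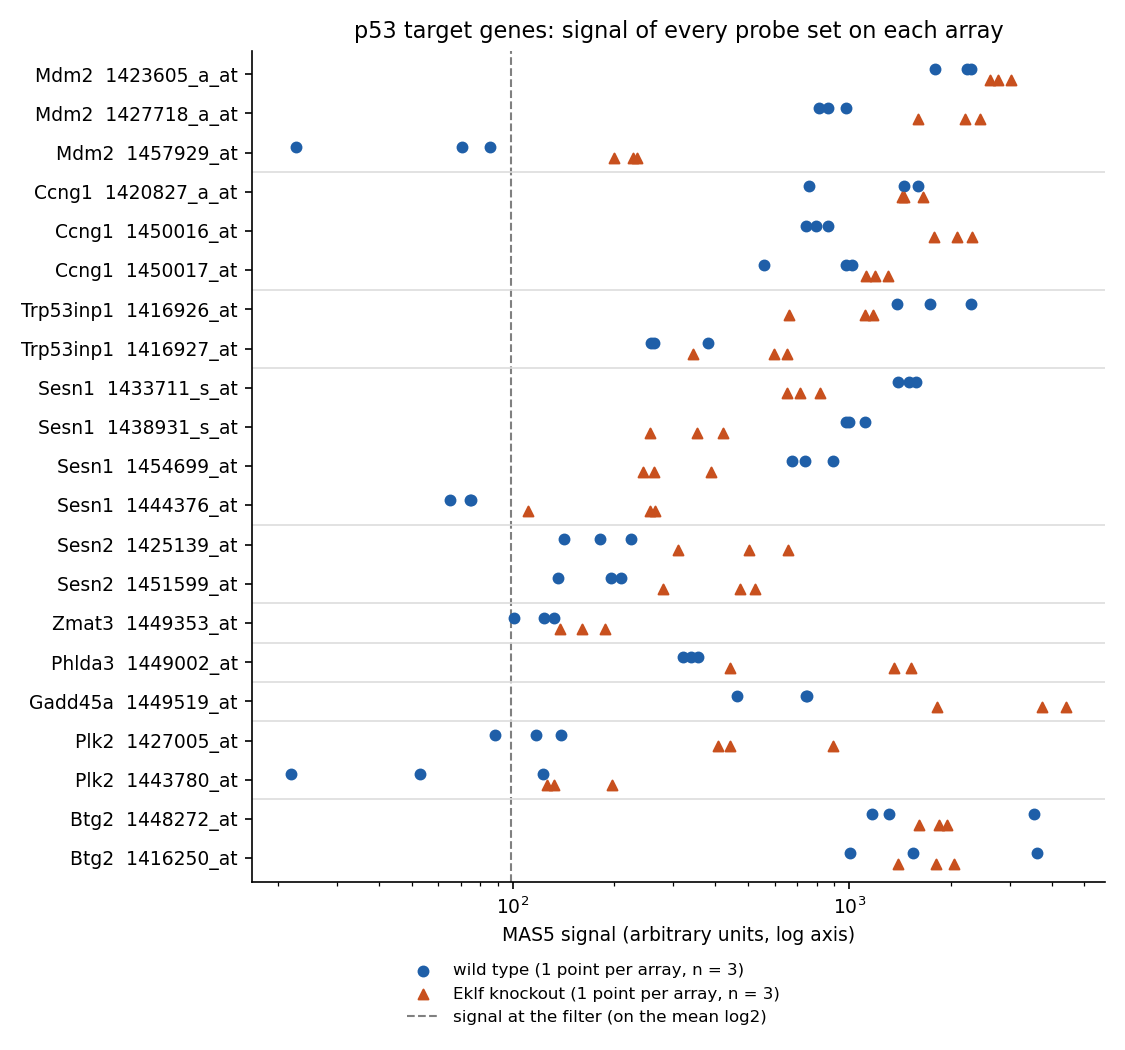
Signal of the 21 probe sets of the 10 p53 target genes (rows) on each of the 6 arrays, on a log axis in arbitrary MAS5 units, with circles for the 3 wild-type and triangles for the 3 knockout arrays and a dashed line at the filter signal of 98.6. The groups are farthest apart for Gadd45a and for the brighter Plk2 probe set, the 3 bright Sesn1 probe sets lie to the left in the knockout, and 1 wild-type array stands alone to the right for both Btg2 probe sets.

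Scaling and sorted cells bear on every value here. The median signal over all probe sets was 97.72 to 139.7 on the wild-type arrays and 204.1 to 218.1 on the knockout arrays, although each array has the same trimmed mean of 500, and 57.3% of the calls were higher as deposited. That share was 44.8% with quantile normalization, 46.3% with cyclic loess and 15% with median centring. Median centring moved the median difference of all genes tested to -0.68, quantile normalization to -0.024 and cyclic loess to 0.0038, and the members then had medians of -0.39, 0.54 and 0.58. Klf1 itself did not separate the groups, with 2508, 2706 and 4030 on wild-type and 3505, 1391 and 2545 on knockout arrays (log2 difference -0.38 ± 0.32, SE), and whether its probe set lies in the deleted part is not given in the sources used here, so the groups rest on their labels. Erythroid markers were bright on all arrays, with 8 of 11 tested higher and 2 lower in the knockout (summed signal 28196 to 32466 in wild type, 58806 to 67151 in knockout). The 2 lower ones were Kit (-1.73) and Gata2 (-0.43), so the list did not move as one. The neutrophil sums given below were larger than these erythroid sums in both groups. Markers of other cells moved too. Higher were 9 of 9 hepatocyte markers (7679 to 8263 against 94091 to 160713), 8 of 9 endothelial or stromal markers (2004 to 2339 against 19075 to 27681), 6 of 6 megakaryocyte markers (6449 to 7341 against 29370 to 38532) and 6 of 8 macrophage markers, with 1 lower (10246 to 12749 against 11502 to 15470). Lower were 7 of 8 lymphoid markers (22006 to 32719 against 832 to 1420) and 5 of 8 neutrophil markers (158614 to 185486 against 84301 to 177949). No marker in these lists read 0 on all 6 arrays, which a marker bright in 1 group could not do. Some were very dim in 1 group, such as Marco at 7.43 to 11.5 in wild type and Rag1 at 4.57 to 60.2 in knockout. Fgb, C1qc, Marco, Col1a1 and Dcn had wild-type means under the filter signal (27.6, 46.2, 9.25, 79.6 and 92.5). They passed the filter through the knockout arrays and had to differ. Cd79a, Vpreb1 and Rag1 had knockout means under it (89.6, 52.2 and 28.6), passed through the wild-type arrays and had to differ. The hepatocyte, macrophage, stromal and lymphoid counts include these genes, whose calls support nothing. The part of other cells in the changes of the p53 targets was not tested, and in RNA from sorted populations fewer cells of a type and less RNA per cell cannot be told apart.

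Mdm2 encodes the ubiquitin ligase that marks p53 for destruction, and its 3 probe sets gave differences of unequal size. The brightest read 2240, 2305 and 1801 on wild-type arrays and 2626, 2764 and 3016 on knockout arrays. All 3 knockout values lay above the wild-type ones, by a log2 difference of 0.41 ± 0.16 (SE), which missed the threshold (adjusted p = 0.0563). The second probe set rose from 862, 975 and 812 to 1599, 2443 and 2207 (1.22 ± 0.20, adjusted p = 0.00174), and it lost its call after median centring (0.40, adjusted p = 0.21). The third, at 85.4, 70.6 and 22.7 against 200, 228 and 233, is the dim one that passed the filter through the knockout arrays (2.09 ± 0.54, adjusted p = 0.0135). It lost its call after quantile normalization (1.26, adjusted p = 0.0605) and cyclic loess (1.19, adjusted p = 0.0675). The value of the brightest probe set depends on scaling as well: it passed after quantile normalization (0.64, adjusted p = 0.0108) and cyclic loess (0.65, adjusted p = 0.0125) and turned to -0.40 after median centring. The mean of the 3 probe sets was 1.24 higher (adjusted p = 0.00304), a value that includes the dim probe set, which had to differ.

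Ccng1 encodes cyclin G1, which recruits a phosphatase to Mdm2 and so takes part in the same loop. Its brightest probe set gave 1604, 1456 and 760 on wild-type arrays and 1456, 1650 and 1431 on knockout arrays. The groups overlapped, with wild-type array 3 the lowest of all, and the difference of 0.32 ± 0.27 (SE) did not pass (adjusted p = 0.346). Without that array it was -0.018. A second probe set of nearly the same brightness rose from 741, 867 and 794 to 1786, 2316 and 2094 (1.36 ± 0.17, adjusted p = 0.000445), with no overlap, and lost its call after median centring (0.55, adjusted p = 0.0912). The third gave 977, 1018 and 558 against 1118, 1188 and 1303 (0.55 ± 0.25, adjusted p = 0.0982). For this gene the call thus depended on the probe set chosen, and the mean of the 3 passed at 0.74 (adjusted p = 0.0148).

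Gadd45a, which binds cell cycle and stress kinase proteins and slows entry into mitosis, had the largest difference of the set. Its 1 probe set gave 745, 463 and 746 on wild-type arrays and 1818, 4406 and 3736 on knockout arrays. Each knockout value lay well above each wild-type one. The group means were 651 ± 163 and 3320 ± 1343 (SD, n = 3), and Gadd45a was higher by 2.29 ± 0.33 on the log2 scale (SE, limma adjusted p = 0.000609). It stayed called in 17 of 17 alternatives, with differences from 1.47 to 2.67. Gadd45a was among the 3200 brightest genes tested, of which 15.1% were called higher and the median difference was -0.25. Of all probe sets tested, 3.43% had a larger difference.

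Plk2, a polo-like kinase of early G1 phase and of the stress response, rose by nearly as much from a dim start. Its brighter probe set gave 117, 88.2 and 139 on wild-type arrays, next to the filter signal, and 443, 893 and 406 on knockout arrays. The groups were well apart, at 2.27 ± 0.35 (SE, adjusted p = 0.000914), and the call held in 17 of 17 alternatives with differences from 1.45 to 2.48. The dim probe set, under the filter and not tested, gave 21.9, 123 and 52.8 against 197, 126 and 132. Because the wild-type level is near the filter, the fold of Plk2 rests on dim values, and of the 3200 genes in its range of brightness 35.1% were called higher.

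Btg2, an antiproliferative protein that recruits the deadenylase complex to mRNA, showed no shift that held. Its brighter probe set gave 1166, 1311 and 3549 on wild-type arrays and 1947, 1607 and 1845 on knockout arrays, and the other one 1005, 1551 and 3622 against 1399, 1810 and 2052. Wild-type array 3 stood far above all others in both probe sets, and in the brighter one the other wild-type values lay below the knockout ones. The differences were 0.03 ± 0.37 (adjusted p = 0.951) and -0.04 ± 0.40 (adjusted p = 0.941). Without wild-type array 3 the brighter probe set was higher in the knockout by 0.54 (adjusted p = 0.0206) and the other by 0.47 (adjusted p = 0.134), so 1 array decided this result.

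**Figure D2:**
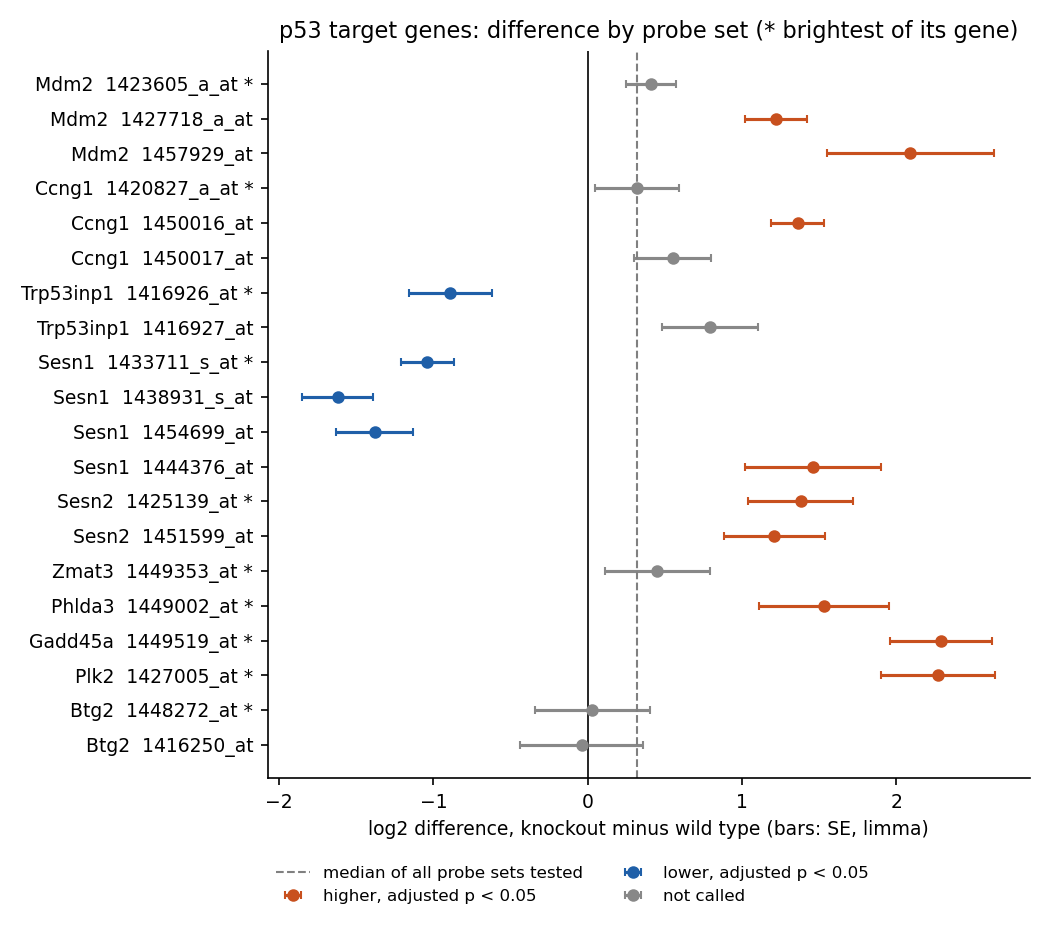
Log2 difference between knockout and wild type for the 20 tested probe sets of the p53 target genes, with standard errors from limma, orange where higher, blue where lower and grey where not called, and a dashed line at 0.32, the median of all probe sets tested. Gadd45a and Plk2 lie farthest to the right, the 3 bright probe sets of Sesn1 farthest to the left, and the probe sets of Sesn1 and of Trp53inp1 fall on both sides of 0.

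The sestrins Sesn1 and Sesn2 are stress proteins that hold back the growth kinase mTORC1, and they moved in opposite directions. The 3 bright probe sets of Sesn1 fell. The brightest gave 1573, 1504 and 1392 on wild-type arrays and 651, 712 and 818 on knockout arrays, a tight pair of groups with no overlap (-1.04 ± 0.17, SE, adjusted p = 0.00108). The second gave 1115, 975 and 1001 against 420, 353 and 255 (-1.62 ± 0.23, adjusted p = 0.000891). The third gave 894, 674 and 736 against 389, 244 and 262 (-1.38 ± 0.25, adjusted p = 0.00287). Sesn1 was called lower in 17 of 17 alternatives, with differences from -1.85 to -0.65, the smallest with the mean of all 4 probe sets. That mean includes a dim probe set that went the other way, at 75.2, 74.3 and 65.1 against 111, 265 and 255 (1.46 ± 0.44, adjusted p = 0.0254). This dim one passed the filter through the knockout arrays, and its call was lost in 8 of 15 alternatives, all 3 scalings among them (0.58 to 0.64). Of all probe sets tested 90.4% to 95.6% had a higher difference than the 3 bright ones.

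Sesn2 rose in both of its probe sets. The brighter gave 142, 181 and 225 on wild-type arrays and 309, 657 and 503 on knockout arrays, with no overlap (1.38 ± 0.32, SE, adjusted p = 0.00737). The other gave 196, 210 and 136 against 280, 526 and 472 (1.21 ± 0.33, adjusted p = 0.0172). The first knockout array was the lowest of its group in both. Scaling ended these calls: the brighter probe set had 0.92 after quantile normalization (adjusted p = 0.0757), 0.87 after cyclic loess (0.0758) and 0.57 after median centring (0.181). The other probe set lost its call under the same 3 scalings and without knockout array 2 (1.03, adjusted p = 0.0676) or 3 (1.11, adjusted p = 0.0614). The rise of Sesn2 and the fall of Sesn1, each at the brightest probe set, kept their signs in all alternatives run.

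Phlda3 encodes a small lipid-binding protein that competes with Akt for the membrane and so restrains survival signals. Its 1 probe set gave 355, 321 and 338 on wild-type arrays and 1528, 441 and 1362 on knockout arrays. The wild-type values were close together, while the second knockout array lay just above them and the other knockout arrays far higher, a rise of 1.53 ± 0.41 (SE, adjusted p = 0.0138). The call was lost after quantile normalization (1.33, adjusted p = 0.0535), median centring (0.71, adjusted p = 0.143) and without knockout array 3 (1.28, adjusted p = 0.0578). Sesn2, Gadd45a and Plk2 were highest on knockout array 2, where Phlda3 was lowest of its group.

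Trp53inp1, a nuclear protein that promotes p53 phosphorylation, autophagy and cell death, gave opposite signs in its 2 probe sets. The brighter fell from 2292, 1739 and 1384 to 660, 1115 and 1176, without overlap (-0.89 ± 0.26, SE, adjusted p = 0.0208). The dimmer gave 257, 379 and 263 on wild-type arrays and 343, 596 and 653 on knockout arrays, with overlap (0.79 ± 0.31, adjusted p = 0.0629). The call of the brighter probe set was lost after quantile normalization (-0.78, adjusted p = 0.054), cyclic loess (-0.71, adjusted p = 0.0663), without wild-type array 1 (-0.70, adjusted p = 0.0757) and without knockout array 1 (-0.63, adjusted p = 0.0542). The mean of both probe sets was -0.049 (adjusted p = 0.888). The fall of Trp53inp1 is thus that of 1 of its 2 probe sets.

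Zmat3, an RNA-binding zinc finger protein that shapes splicing, was near the filter. It gave 124, 132 and 101 on wild-type arrays and 188, 138 and 160 on knockout arrays. The groups did not overlap but lay close together, and the difference of 0.45 ± 0.33 (SE) did not pass (adjusted p = 0.28). It turned to -0.39, -0.40 and -0.37 after quantile normalization, cyclic loess and median centring. Over the 3200 dimmest genes tested, to which Zmat3 belongs, the median difference was 0.94.

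**Figure D3:**
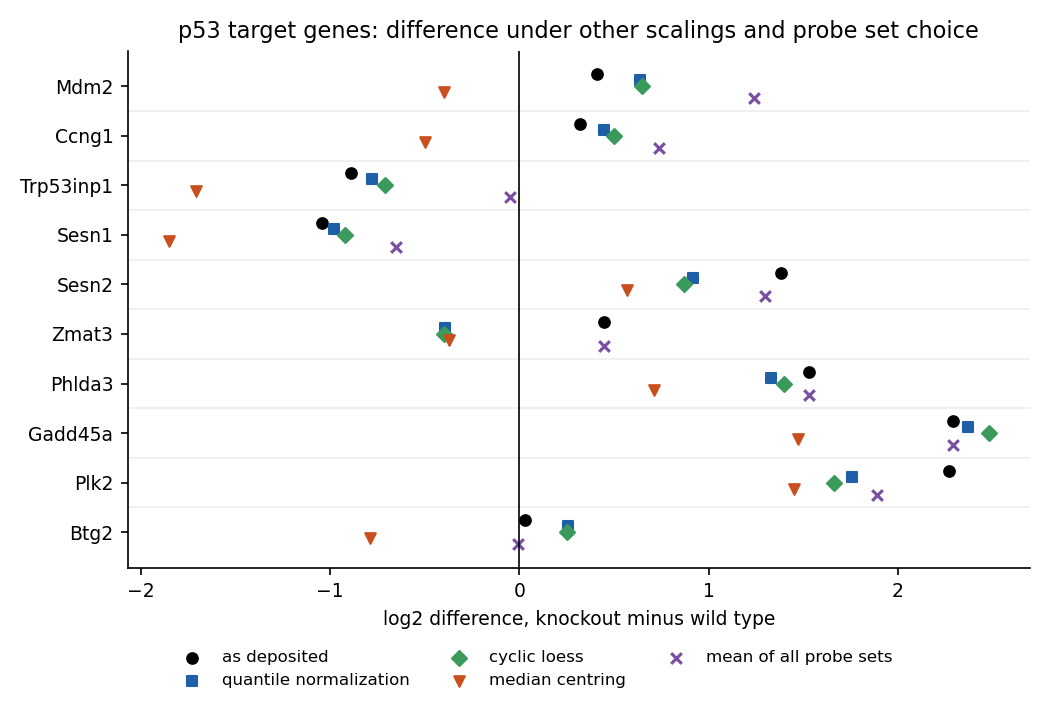
Log2 difference of the 10 p53 target genes at the brightest probe set as deposited and under quantile normalization, cyclic loess and median centring, and with the mean of all probe sets of a gene. Gadd45a, Plk2, Phlda3 and Sesn2 lie right of 0 and Sesn1 left of it under each setting, while Mdm2, Ccng1, Zmat3 and Btg2 change side.

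The other genes of the pathway were counted from a list of 35 further p53 targets, of which 31 had a probe set of their own and 27 passed the filter. Of these 8 were higher, 6 lower and 13 not called, shares close to the 27.9% and 20.8% of all genes tested. Their median difference was 0.24. No role group moved as one: 1 of 5 arrest genes was higher and 0 lower, 2 of 10 cell death genes higher and 2 lower, 2 of 5 repair genes higher and 2 lower, and 3 of 7 genes of metabolism and other roles higher and 2 lower.

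Cdkn1a, the cell cycle inhibitor p21 and the best known p53 target, gave 391, 458 and 563 on wild-type arrays and 353, 1053 and 878 on knockout arrays. Knockout array 1 lay below all wild-type arrays and the other knockout arrays above them (0.57 ± 0.38, SE, adjusted p = 0.234), and without that array the difference was 1.05 (adjusted p = 0.00766). Bbc3, which encodes the death inducer Puma, rose from 228, 258 and 361 to 406, 1106 and 1076 (2.84-fold, adjusted p = 0.0106). Pmaip1, which encodes Noxa, a death inducer of the same class, fell from 427, 337 and 307 to 57.5, 275 and 116 (-1.53 ± 0.50, adjusted p = 0.0312), but the call held without knockout array 2 and was lost without any one of the other arrays (-1.63 to -0.99). These death genes of like function thus went apart, as the sestrins did.

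Dram1, a lysosomal protein of autophagy, had the largest fall of the list, from 2119, 2070 and 2274 to 343, 169 and 287 (-3.08 ± 0.26, adjusted p = 3.11e-05). Xpc, the damage sensor of nucleotide excision repair, fell from 1612, 1258 and 1894 to 411, 428 and 405 (-1.92 ± 0.19, adjusted p = 8.32e-05). Apaf1, the scaffold of the apoptosome, fell by 1.20, and its other probe set gave -0.21. Cd82, a membrane tetraspanin, fell by 1.41, while a dim second probe set had 1.76, not called, and their mean was 0.17. Rrm2b, the ribonucleotide reductase subunit of resting cells, fell by 0.79, and lost its call without wild-type array 1 (-0.64), wild-type array 2 (-0.67), knockout array 2 (-0.80) or knockout array 3 (-0.69). Prkab1, a subunit of the energy sensor AMPK, rose by 1.18, Psrc1, a spindle protein, by 0.95, Ephx1, an epoxide hydrolase, by 0.95, Polk, a bypass DNA polymerase, by 0.92 and Sco2, a copper chaperone of cytochrome oxidase, by 0.84. Ephx1, Polk and Sco2 lost their calls under all 3 scalings, and each also without knockout array 2 (0.86, 0.74 and 0.82). Ephx1 and Sco2 lost them without wild-type array 1 (0.85 and 0.80), Polk without wild-type array 3 (0.67), and Polk and Sco2 without knockout array 3 (0.92 and 0.66). After median centring 0 of the 27 were higher and 13 lower. Of all 12799 genes tested 1085 were then higher and 6133 lower, so the lower count is close to the background.

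The gene of p53 itself was not analysed here. Of 13 tested genes that act on p53, 1 was higher, 2 lower and 10 not called. Among all genes tested 27.9% were higher and 20.8% lower. Of the 10 not called, Cdkn2a had a wild-type mean of 76.4, under the filter signal, and passed the filter through the knockout arrays. Ppm1d, a phosphatase that switches the response off and is itself a target, rose by 0.62 ± 0.23 (SE, adjusted p = 0.0448), but its second probe set had -0.55, their mean was 0.036, and the call was lost without wild-type array 1 (0.55) or 2 (0.54) and without knockout array 1 (0.69) or 3 (0.45). Ppm1d was called in 7 of 17 alternatives, with losses also after quantile normalization (adjusted p = 0.0961) and cyclic loess (adjusted p = 0.0955), with no filter (adjusted p = 0.0524) and with no variance trend (adjusted p = 0.0622). Usp7, which removes ubiquitin from p53 and Mdm2, fell by 0.47 ± 0.17 (adjusted p = 0.0471), with 2 of its 6 other probe sets lower and 1 higher, and kept its call without wild-type array 3 while losing it without any one of the other arrays (-0.50 to -0.33). Usp7 was called in 6 of 17 alternatives. It had -0.24 after quantile normalization (adjusted p = 0.346) and after cyclic loess (adjusted p = 0.328), and the mean of its probe sets was -0.33 (adjusted p = 0.195). Trp53bp1, a DNA break protein that binds p53, fell by 0.72 ± 0.20 (adjusted p = 0.0148), a call lost without wild-type array 1 (-0.67, adjusted p = 0.0544) or knockout array 3 (-0.54, adjusted p = 0.0553). After cyclic loess Trp53bp1 had -0.55 (adjusted p = 0.05), and the mean of its probe sets was -0.31 (adjusted p = 0.398). The other tested probe sets of Trp53bp1 had differences of -0.37, 0.27 and 0.59, none called. Mdm4, the partner of Mdm2, gave 1138, 873 and 222 on wild-type arrays and 542, 909 and 765 on knockout arrays at its brightest probe set (0.26 ± 0.53, adjusted p = 0.703), where wild-type array 3 stood apart. Another Mdm4 probe set rose from 141, 146 and 120 to 270, 446 and 322 (1.32 ± 0.30, adjusted p = 0.00857 over all probe sets), and a further one had 0.69 ± 0.31 (adjusted p = 0.0983). The mean of its probe sets was 0.94 (adjusted p = 0.0654).

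**Figure D4:**
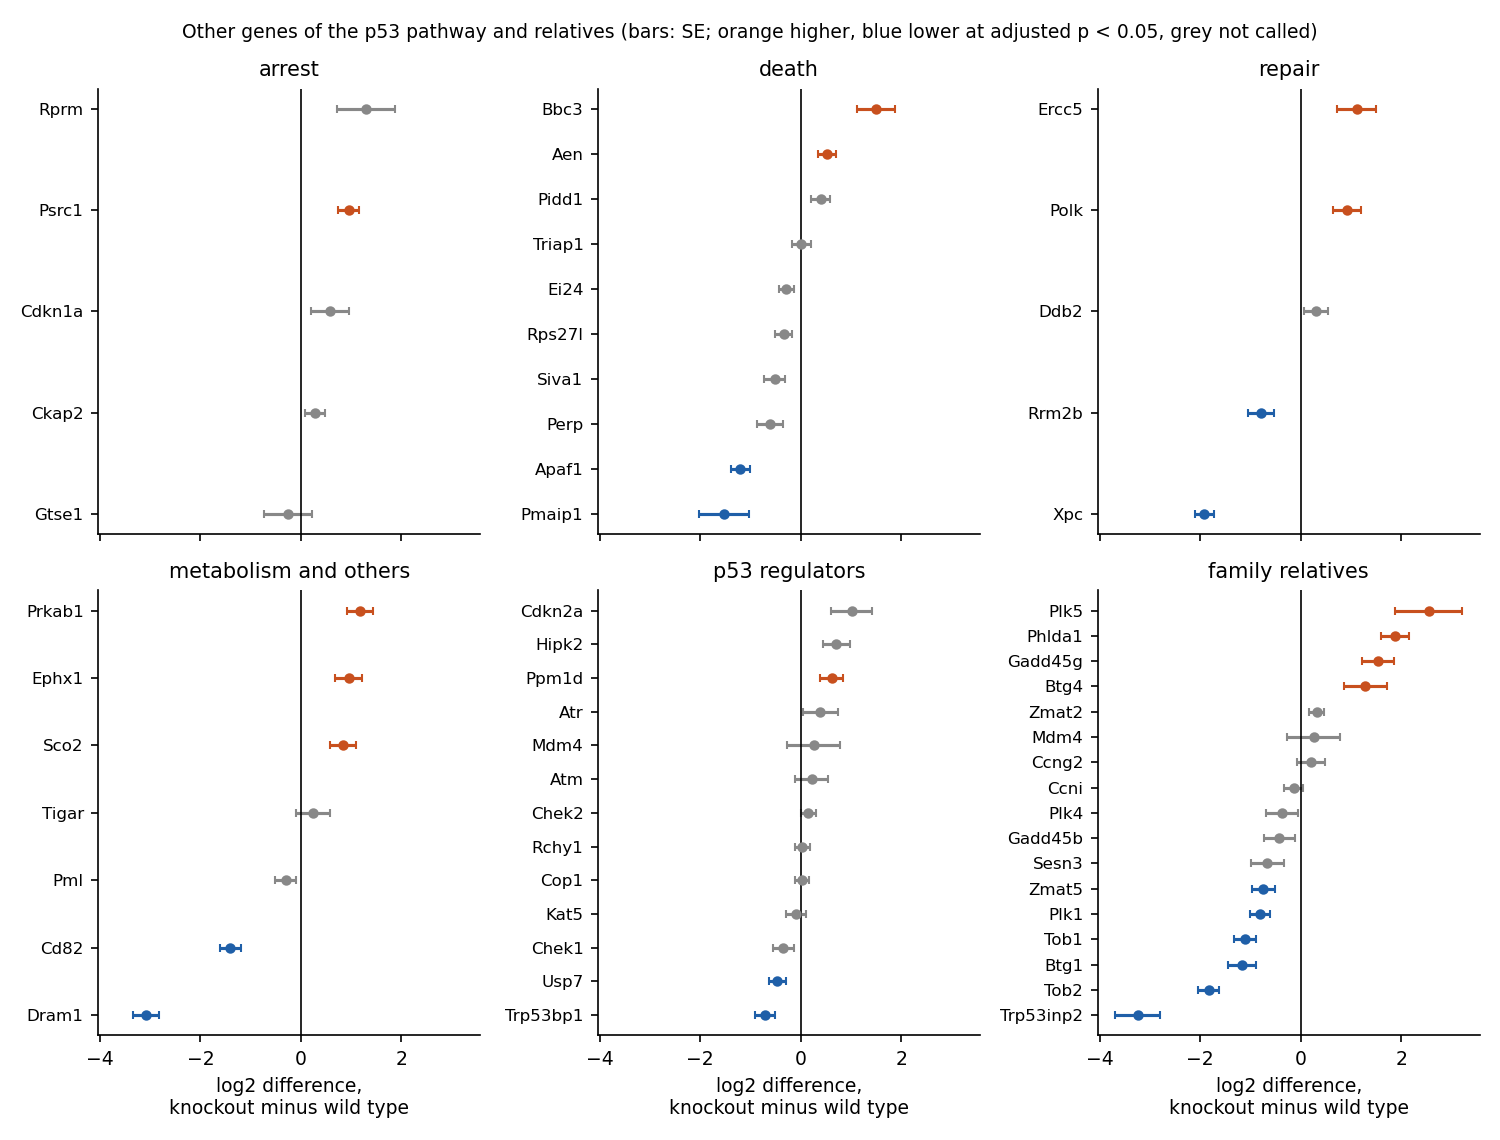
Log2 differences (knockout minus wild type, bars give the SE) of the tested genes of 6 lists: p53 targets of cell cycle arrest, cell death, repair and metabolism with other roles, genes that act on p53, and family relatives of the 10 p53 target genes. Each panel except that of arrest has genes called on both sides of 0, with Dram1 and Trp53inp2 the lowest and Plk5 the highest. Trp53inp2, Plk5 and Btg4 passed the filter through the arrays of 1 genotype and had to differ. Rprm and Cdkn2a, not called, had wild-type means of 73.5 and 76.4, under the filter signal, and passed through the knockout arrays too.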

How the data were processed

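RNA from 6 samples, 3 per genotype and 1 array each, gave the values used. The deposited values are MAS5 signals, an intensity on a linear scale. The submitters' processing notes name MAS5 and Affymetrix Expression Console, without versions. Each array has a trimmed mean of 500, which leaves the medians free to differ. No detection calls were used, so brightness was judged from the signal alone. The number of arrays limits the precision, and nothing in the labels shows a batch.

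The floor of the signal was 1, which 303 values lay under, before taking log2. Of 45101 probe sets 34958 list 1 gene, 932 list several and 9211 are not listed, and for 34754 the RefSeq symbol was found by Entrez identifier. Array controls (64 probe sets) were left out. The 40th percentile of the mean log2 signal was the minimum for testing. Knockout was set against wild type by limma 3.58.1 (R 4.3.3, lmFit, eBayes with a variance trend, two-sided), once with the brightest probe set per gene and once with all probe sets, with Benjamini-Hochberg adjustment over all features tested and a threshold of 0.05. Figures used matplotlib 3.10.9 in Python 3.11.15.

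The members and gene lists were chosen with earlier results of these data known. Named outside the members were Cdkn1a, Bbc3, Mdm4, Ppm1d, up to 6 other targets called in each direction with the smallest p, and every called regulator and relative. Sesn3 and Gadd45b were named after their values were seen. No 2 arrays held identical values. The fit was tested on simulated data with 50 genes changed at each of 4 sizes. It recovered 82% and 80% of log2 changes of -2 and 2, and 34% and 42% of changes of -1 and 1. There were 4 false calls. Far fewer genes differed there than were called here, so these shares need not hold for these data. A gene not called may still differ. Alternatives were other scalings, offsets of 16 and 64, other filters, variance models, probe set choices, a replicate block, each array left out and an adjusted p under 0.01. In a first run these alternatives chose the filter and each gene's probe set anew. After its values were seen, both choices were held at those of all 6 arrays as deposited, except where the alternative is that choice, which changed several alternative values and no main one.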

Additional observations from a re-analysis of the deposited data

How the results depend on the processing

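Gadd45a, Plk2 and Sesn1 kept direction and call in all 17 alternatives. Of the 10 genes, 4 were called higher as deposited and 2 after median centring. The count of lower genes, 2, was 1 after quantile normalization, cyclic loess, the mean of probe sets or an adjusted p under 0.01, and 1 to 2 when 1 array was left out (1 without wild-type array 1 or knockout array 1). Probe sets called higher, 9, were 5 after quantile normalization, 3 after median centring, 4 at 0.01 and 6 to 9 with 1 array left out. Other p53 targets called higher, 8, were 4 after quantile normalization, 4 after cyclic loess, 0 after median centring, 2 at 0.01 and 4 to 7 with 1 array left out, and the 6 lower became 13 after median centring. Over all genes, 3571 higher calls became 2224 after quantile normalization, 2292 after cyclic loess, 1085 after median centring, 2133 with a filter at the 60th percentile and 2104 at 0.01, and 2661 lower calls became 6133 after median centring and 1672 at 0.01. The cause of these changes was not tested.

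Signs turned for these differences. After median centring Mdm2 was -0.40, Ccng1 -0.50, its least bright probe set -0.27, Zmat3 -0.37, Btg2 -0.79, Mdm4 -0.56, Ppm1d -0.19, Cdkn1a -0.25 and the dimmer Trp53inp1 probe set -0.023. After quantile normalization Zmat3 was -0.39 and the second Btg2 probe set 0.19, and after cyclic loess they were -0.40 and 0.18. With array weights Mdm4 was -0.27 and the second Btg2 probe set 0.51. With the mean of probe sets Cd82 was 0.17 and Btg2 -0.0053. With 1 array left out, Ccng1 ranged from -0.018 to 0.52, Mdm4 from -0.46 to 0.71, Btg2 from -0.27 to 0.54 and its second probe set from -0.45 to 0.47. Of these, wild-type array 3 gave -0.018, -0.46, 0.54 and 0.47 in that order. Btg2 was -0.27, -0.18 and -0.03 without wild-type array 1, wild-type array 2 or knockout array 1, and without that last array its second probe set was 0.11.

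Same-numbered arrays of the groups deviated together only weakly (correlations 0.040 to 0.076), so the number was not taken to pair them. With the replicate block 4 genes were called higher and 2 lower, as without it, the dimmer Trp53inp1 probe set passed (adjusted p = 0.0466), and Usp7 lost its call. Brightness limits what dim members show: Zmat3, the wild-type signal of Plk2 and the dim probe sets of Mdm2 and Sesn1 lie near or under 98.6.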

Other observations

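Family relatives of the 10 genes, most of them not known for control by p53, were compared as a list of 22, of which 21 had a probe set of their own and 17 passed the filter. Of these 4 were higher and 6 lower, with a median difference of -0.37, where 27.9% and 20.8% of all genes tested were called. Of the 4 higher, Btg4 and Plk5 had wild-type means under the filter and passed it through the knockout arrays, so they had to differ and the count of higher genes supports nothing. Among the Gadd45 genes, Gadd45g rose from 145, 109 and 233 to 407, 479 and 467 (1.54 ± 0.31, SE, limma adjusted p = 0.00343), as Gadd45a did, while Gadd45b gave -0.42 ± 0.30 (adjusted p = 0.274). Gadd45g lost its call after cyclic loess and median centring. Phlda1, a relative of Phlda3, rose from 226, 186 and 331 to 789, 1119 and 778 (1.88 ± 0.27, adjusted p = 0.000558) and was called in 17 of 17 alternatives.

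Of the called relatives of Btg2, which share its antiproliferative domain, 3 fell and 1 rose. Btg1 fell from 4757, 4296 and 6846 to 1506, 3189 and 2572 (-1.17 ± 0.28, adjusted p = 0.00846), and its 2 other probe sets gave -1.55 and -4.01. The probe set at -4.01 had knockout signals of 63.5, 82.2 and 14, passed the filter through the wild-type arrays and had to differ. Tob1 fell by 1.10 and Tob2 by 1.83, but Tob2 has 5 probe sets with differences from -1.95 to 1.04. With the mean of probe sets both calls were lost. For Tob1 that mean includes a probe set under the filter, at 28.6, 17.7 and 14.4 against 18.1, 140 and 24.9. Btg4 rose by 1.29 from wild-type signals of 50.5 to 89.5, under the filter signal, and lost its call under all 3 scalings and without wild-type array 1 (1.10), wild-type array 3 (1.25), knockout array 2 (1.08) or knockout array 3 (1.33). Trp53inp2, the relative of Trp53inp1 and a protein of autophagy, fell from 475, 479 and 765 to 55.2, 33 and 112 (-3.24 ± 0.45, adjusted p = 0.000515) at the 1 probe set tested. Its knockout mean lay under the filter signal, so it passed through the wild-type arrays and had to differ. Plk1, the mitotic polo-like kinase, fell by 0.80 where Plk2 rose, and Plk5, with wild-type signals of 23.8, 190 and 44.8, rose by 2.55, a call lost after cyclic loess (1.70, adjusted p = 0.0579). Zmat5, a splicing protein, fell by 0.74, a call lost without wild-type array 1 (-0.73), wild-type array 3 (-0.64) or knockout array 3 (-0.61). Sesn3, a sestrin controlled by FoxO, gave 484, 477 and 318 against 423, 211 and 208 (-0.66 ± 0.33, adjusted p = 0.12).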
